A study of Mus musculus with 6 samples.

Results

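Transcripts of 37 genes of sterol synthesis, lipogenesis and cholesterol efflux were examined in primary mouse cardiomyocytes with and without the pathogenic RIT1 variant M90I. The genes were chosen by name, as enzymes of cholesterol synthesis and fatty acid synthesis driven by SREBP transcription factors and as receptors and transporters of the LXR efflux route. All 37 were found by Ensembl ID among the 54532 genes of the deposited table. They comprised 19 synthesis enzymes, 5 regulators of SREBP, 3 sterol transport proteins, 5 LXR and efflux genes and 5 lipogenesis genes. Levels were in FPKM, a fragment number corrected for exon length and library size. A mean of at least 0.5 FPKM was required for testing, and 36 of the 37 met it.

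The cells were isolated from hearts of mice 1 to 3 days old whose Rit1 locus had been engineered so that Cre recombinase switches on the variant. On day 3 after isolation the cultures were given adenovirus carrying GFP (AdGFP, labelled Rit1 +/+) or GFP with Cre (AdCre, labelled Rit1 M90I/+). Each group held 3 biological replicates, numbered 1 to 3 in both, and the labels do not say what a shared number marks. Every culture therefore carried virus and GFP, while Cre and the variant came together in every AdCre culture and cannot be told apart. Cells that had not attached to plastic within 2 hours were seeded at about 1 heart per well, and no sort followed, so other heart cells remained.

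Cholesterol is built from acetyl-CoA through mevalonate, the isoprenoid units and squalene, after which lanosterol is trimmed to cholesterol by a chain of enzymes of the endoplasmic reticulum. When sterols run low, the escort protein SCAP carries SREBP precursors to the Golgi, where they are cut to release the active factor. When sterols are plentiful, INSIG proteins hold SCAP back. Oxidized sterols activate the LXR receptors, which induce the exporters ABCA1 and ABCG1 and the ubiquitin ligase MYLIP. Both arms operate in heart muscle and in the other cells of the heart.

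Sterol synthesis transcripts were mostly lower in AdCre and Abcg1 was higher. Of the 18 synthesis enzymes tested, 15 had a lower mean in AdCre, with a median difference of -0.36 on the log2(FPKM + 0.1) scale that is used for every difference here. Over all 13794 genes tested the median was -0.002, and 50.4% lay below 0. Of all 36 members, 26 were lower and 10 higher, with a median of -0.19. After rescaling to TPM 24 were lower and 12 higher, with a median of -0.10, and without the library scaling of the authors 25 and 11, with a median of -0.13. The median over all genes moved as well, to 0.087 after rescaling to TPM and to 0.058 without that library scaling. The median over the 5 LXR and efflux genes was 0.30, set by single members as described below, and over the 5 lipogenesis genes it was -0.17. The 15 to 3 split of the synthesis enzymes was the same after rescaling to TPM, after median centring and without the library scaling of the authors.

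How firm these differences were depended on whether same-numbered samples were treated as pairs. In limma fits that compared the groups without pairing, 0 of the 36 members were called at an adjusted p under 0.05, where 0.00725% of all genes tested (1 gene) were called. At an unadjusted p under 0.05 there were 10 members, 9 lower and 1 higher, against a background of 10.2%, 5.45% and 4.71% of all genes. The voom fit on reads worked back from FPKM gave likewise 0 called and 10 at an unadjusted p under 0.05. The count of 10 was 3 after rescaling to TPM, 16 without AdGFP replicate 1 and 6 without AdGFP replicate 3. The 9 members with an unadjusted p under 0.05 and lower were Hmgcs1, Sqle, Cyp51, Msmo1, Nsdhl, Hsd17b7, Insig1, Scd2 and Fasn, and the higher 1 was Abcg1.

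Same-numbered samples deviated together from their group means (the correlations are given with the methods), so the replicate number was also fitted as a block. With the block, 7 members were called, against 6.15% of all genes. The 6 that fell were Hmgcs1, Fdft1, Cyp51, Msmo1, Hsd17b7 and Insig1, against 3.51% of all genes called as lower. Abcg1 alone rose, against 2.64% called as higher. The block favours genes whose pairs differ by like steps, so even pair differences in these 7 members are no separate evidence. The background split turned with scaling, with 2.44% lower and 3.9% higher after rescaling to TPM, where 4 members fell (Hmgcs1, Cyp51, Msmo1 and Hsd17b7) and Abcg1 rose. How many calls the blocked fit made depended on which pair was left out. Without replicate 1 in both groups 6 members were called (Hmgcs1, Cyp51, Msmo1, Hsd17b7, Fasn and Abcg1), beside 5.6% of all genes. Without replicate 3 in both groups 0 members were called, with 10 at an unadjusted p under 0.05, beside 0.00725% of all genes. Without replicate 2 Cyp51 was the member called, beside 1.08% of all genes. Without replicate 3 the differences of the 7 members were -0.56 for Hmgcs1, -0.51 for Fdft1, -0.80 for Cyp51, -0.60 for Msmo1, -0.52 for Hsd17b7, -0.44 for Insig1 and 1.15 for Abcg1. Blocked fits without a filter or without the variance trend also called 0 members, beside 0.0598% and 0% of all genes.

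**Figure D1:**
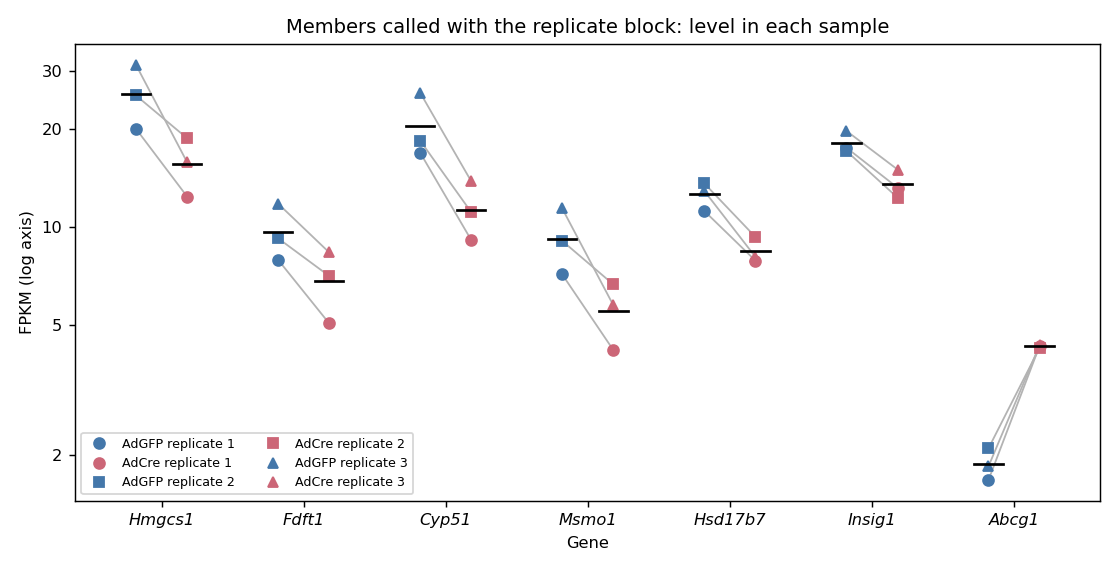
Levels in FPKM, on a log axis, of the 7 genes called with the replicate block, in the 3 AdGFP samples (blue) and the 3 AdCre samples (red). Symbols mark the replicate number, grey lines join same-numbered samples and black bars are group means. All 18 lines of the 6 genes at the left run down and all 3 of Abcg1 run up. The genes were picked by the blocked fit, which favours like steps within pairs. Lines that run the same way are therefore largely given by that choice.

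Ranges that did not overlap were counted over the 36 tested members, as a plain description of the samples. For 8 of them every AdCre sample lay below every AdGFP sample, against 8.02% of all genes, namely Hmgcs1, Sqle, Cyp51, Msmo1, Nsdhl, Hsd17b7, Insig1 and Fasn. For 2 of them, Abcg1 and Npc2, the AdCre samples all lay above, against 7.36% of all genes. A tested member was lower in all 3 same-numbered pairs in 15 cases, 10 of them synthesis enzymes, against 24.5% of all genes, and higher in all 3 pairs in 5 cases, against 23.9%. For any single gene, an exact permutation test (two-sided) of 3 against 3 samples without pairing has 0.1 as its smallest possible p. Swaps within 3 pairs allow fewer arrangements, so with pairing the smallest possible p is larger.

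The mevalonate arm supplies the isoprenoid units and holds 7 members, of which 6 were tested and all 6 had a lower mean in AdCre. Hmgcs1, the cytosolic HMG-CoA synthase that opens the committed route (ENSMUSG00000093930, GRCm38 chromosome 13, 119690379 to 119708260), stood at 20, 25.3 and 31.4 FPKM in AdGFP replicates 1 to 3 and at 12.4, 18.7 and 15.8 FPKM in AdCre. Its highest AdCre sample lay below its lowest AdGFP sample. The means were 25.6 ± 5.66 and 15.6 ± 3.15 FPKM (SD, n = 3 each), a difference of -0.70 (SE 0.21). The limma adjusted p was 0.344 without pairing and 0.0333 with the block, and the differences within pairs were -0.69, -0.43 and -0.98. Of its exon bases, 12.1% lie opposite exons on the other strand, and the use of strand in counting is not given in the sources used here.

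Idi1, the isomerase that interconverts the isoprenoid units, had 5.03, 6.43 and 8.65 FPKM in AdGFP and 3.88, 5.13 and 5.03 FPKM in AdCre. The ranges overlapped only at the lowest AdGFP sample, the difference was -0.49 (SE 0.22), and all 3 pairs were lower. It was not called without pairing (limma adjusted p 0.519) or with the block (0.0755), while voom with the block called it (0.0423). The difference was -0.29 without AdGFP replicate 3. Of the 50-base words of its transcripts, 17.7% are also found in other genes, which leaves its level uncertain.

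The other tested members of the arm differed by less. Acat2, which joins acetyl-CoA units, was at -0.23, the mevalonate kinase Mvk at -0.21, the phosphomevalonate kinase Pmvk at -0.14 and the decarboxylase Mvd at -0.30, with limma adjusted p between 0.623 and 0.846. The AdGFP and AdCre ranges overlapped for each of these 4 genes. Acat2 shares 39.1% of its transcript words with other genes, chiefly Acat3.

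Fdps, the farnesyl diphosphate synthase, was too low for testing. It had 0.308, 0.403 and 0.260 FPKM in AdGFP and 0.119, 0.166 and 0.146 FPKM in AdCre, from between 16 and 43 reads per sample. The ranges did not overlap and all 3 pairs were lower, which the counts over tested members leave out. Other genes share 26.2% of its transcript words, and 26.7% of its exon bases lie in same-strand exons of neighbours. Reads that fell to such copies were not measured, so its level is uncertain.

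The squalene arm turns farnesyl units into squalene, lanosterol and cholesterol and holds 12 members, all tested, of which 9 had a lower mean in AdCre. The largest difference of the synthesis enzymes was that of Cyp51, the lanosterol demethylase (ENSMUSG00000001467, chromosome 5, 4081145 to 4104746). Cyp51 had 16.9, 18.4 and 25.8 FPKM in AdGFP and 9.12, 11.1 and 13.8 FPKM in AdCre. The ranges were apart, and each AdCre sample was below its same-numbered AdGFP sample by a similar step (-0.88, -0.72 and -0.90). The means were 20.4 ± 4.76 and 11.3 ± 2.34 FPKM (n = 3 each), a difference of -0.84 (SE 0.21, limma adjusted p 0.298 without pairing, 0.0132 with the block).

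Msmo1 and Hsd17b7 act on the same stretch of the route, the removal of methyl groups from sterol intermediates, Msmo1 as the oxidase and Hsd17b7 as the keto-reductase. Msmo1 (ENSMUSG00000031604, chromosome 8, 64718139 to 64733792) had 7.16, 9.07 and 11.4 FPKM in AdGFP and 4.20, 6.67 and 5.76 FPKM in AdCre. Every AdCre sample lay below every AdGFP sample. The difference was -0.72 (SE 0.23, limma adjusted p 0.365, and 0.0349 with the block).

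Hsd17b7 (ENSMUSG00000026675, chromosome 1, 169949535 to 169969241) had 11.2, 13.6 and 12.9 FPKM in AdGFP and 7.89, 9.32 and 8.10 FPKM in AdCre. Its ranges were also apart, and its samples varied little within a group, at 12.6 ± 1.26 and 8.43 ± 0.773 FPKM (n = 3 each). The difference was -0.57 (SE 0.13, limma adjusted p 0.261, and 0.0269 with the block). Nsdhl, the dehydrogenase of the same stretch, was at -0.43 with ranges that did not overlap, and was not called (0.33, and 0.0701 with the block), except by voom with the block (0.0461).

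Fdft1, the squalene synthase that commits farnesyl units to sterols (ENSMUSG00000021273, chromosome 14, 63145150 to 63179578), had 7.94, 9.24 and 11.8 FPKM in AdGFP and 5.07, 7.08 and 8.36 FPKM in AdCre. The group ranges overlapped, because AdCre replicate 3 lay above AdGFP replicate 1, while all 3 pairs were lower (-0.64, -0.38 and -0.50). The difference was -0.50 (SE 0.23, limma adjusted p 0.519, and 0.0396 with the block), and it was -0.31 without AdCre replicate 1. Copies share 9.4% of its transcript words, and 18.3% of its exon bases face antisense exons.

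The remaining enzymes of the arm were not called in either fit. Sqle, the squalene epoxidase, was at -0.39 without overlap of the ranges, though its pair 2 difference was only -0.02. The lanosterol synthase Lss was at -0.42, the desaturase Sc5d at -0.32 and the final reductase Dhcr7 at -0.19, each with overlapping ranges. Against the run of the arm, the 3 members with a higher mean in AdCre were the sterol reductases Lbr (0.17) and Tm7sf2 (0.29) and the isomerase Ebp (0.21), with limma adjusted p between 0.706 and 0.733. Lbr is also an anchor of chromatin at the nuclear envelope. Tm7sf2 shares 12.1% of its exon bases with a same-strand neighbour and had as few as 98 reads in a sample.

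**Figure D2:**
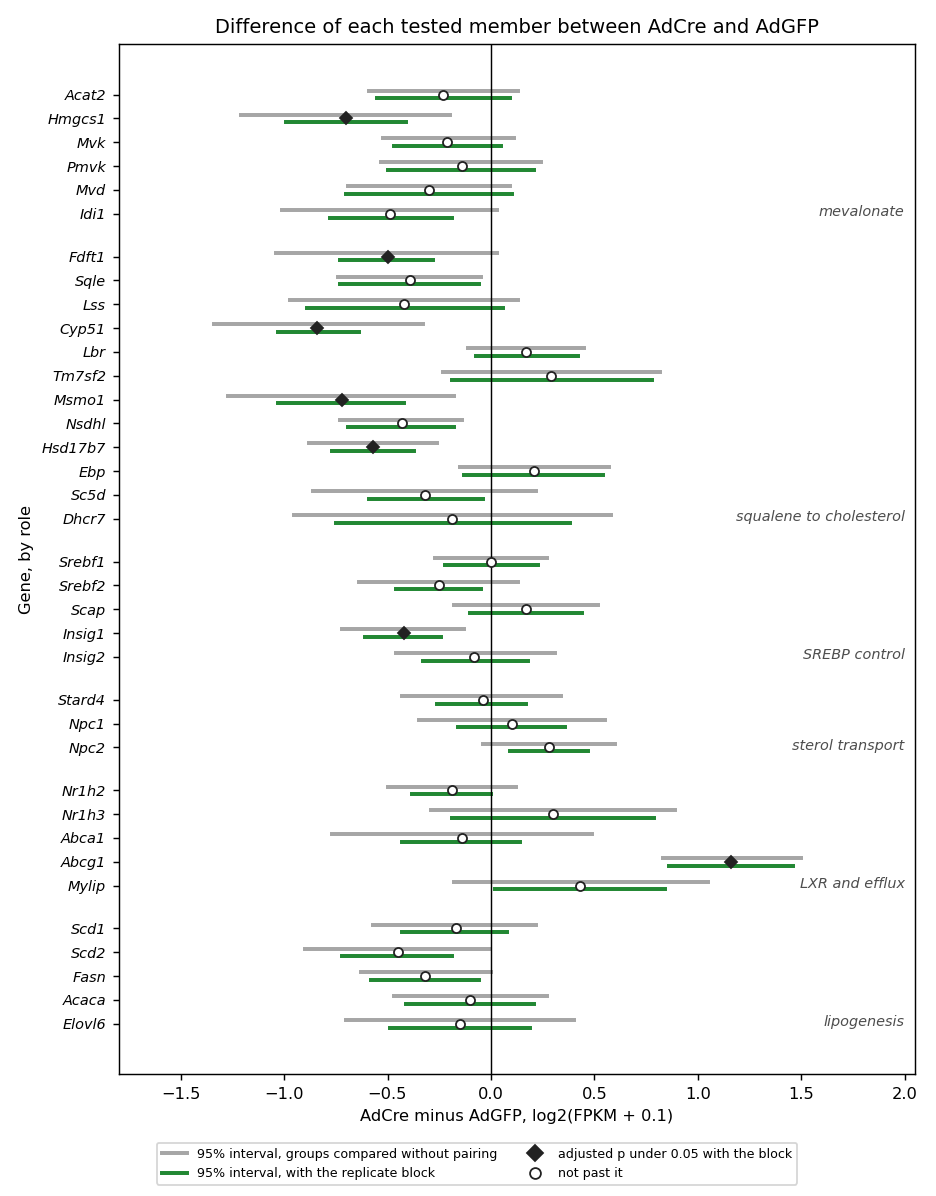
Difference between AdCre and AdGFP for each of the 36 tested members on the log2(FPKM + 0.1) scale, grouped by role. Bars are 95% intervals from limma without pairing (grey) and with the replicate block (green), and filled diamonds mark the 7 members called with the block. The intervals of Cyp51, Hmgcs1, Msmo1, Hsd17b7 and Insig1 lie below 0 in both fits, and that of Abcg1 lies above 0 in both. Those of Sqle, Nsdhl, Scd2 and Fasn, which were not called, also lie below 0 in both.

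The promoters of the called members are shown because SREBP works beside a partner, NF-Y, which binds the CCAAT box. The RefSeq table (GRCm38.p6) holds windows of 300 bases, from 250 before to 50 after the start site, for 29 of the 37 members and for 27025 genes in all. Both strands were searched for the sterol regulatory element, the looser form TCACNCCAC that every copy of it contains, the NF-Y box CCAAT and the LXR direct repeat, which is AGGTCA given again after 4 free bases. Of the 7 called members, 5 are in the table, and Fdft1 and Abcg1 are not. Capitals mark the matches, ATTGG being CCAAT on the other strand.
Hmgcs1 (chr13:119690101-119690400, plus strand): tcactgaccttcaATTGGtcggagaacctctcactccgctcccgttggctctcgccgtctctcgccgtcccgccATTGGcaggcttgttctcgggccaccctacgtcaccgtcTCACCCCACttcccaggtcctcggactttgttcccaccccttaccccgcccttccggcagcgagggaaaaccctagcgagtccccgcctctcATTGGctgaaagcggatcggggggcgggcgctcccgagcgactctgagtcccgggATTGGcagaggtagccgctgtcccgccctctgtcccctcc
Cyp51 (chr5:4104648-4104947, minus strand): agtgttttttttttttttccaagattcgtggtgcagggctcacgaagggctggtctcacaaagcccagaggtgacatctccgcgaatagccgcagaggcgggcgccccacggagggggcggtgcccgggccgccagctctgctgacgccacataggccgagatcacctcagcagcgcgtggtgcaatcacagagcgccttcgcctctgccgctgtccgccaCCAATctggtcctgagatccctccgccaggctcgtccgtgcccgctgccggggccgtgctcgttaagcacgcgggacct
Msmo1 (chr8:64733529-64733828, minus strand): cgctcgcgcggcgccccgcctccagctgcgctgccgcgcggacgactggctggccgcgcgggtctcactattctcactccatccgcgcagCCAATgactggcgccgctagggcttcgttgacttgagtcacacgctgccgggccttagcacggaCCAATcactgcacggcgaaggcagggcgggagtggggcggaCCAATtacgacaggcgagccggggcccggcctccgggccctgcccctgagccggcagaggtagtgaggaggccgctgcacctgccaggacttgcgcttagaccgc
Hsd17b7 (chr1:169969156-169969455, minus strand): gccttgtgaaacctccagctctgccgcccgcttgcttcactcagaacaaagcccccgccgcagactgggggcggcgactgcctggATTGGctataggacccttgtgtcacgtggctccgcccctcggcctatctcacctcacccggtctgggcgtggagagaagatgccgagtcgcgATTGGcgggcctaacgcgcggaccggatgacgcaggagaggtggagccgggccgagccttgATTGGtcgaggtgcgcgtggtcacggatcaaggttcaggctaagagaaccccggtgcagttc
Insig1 (chr5:28071162-28071461, plus strand): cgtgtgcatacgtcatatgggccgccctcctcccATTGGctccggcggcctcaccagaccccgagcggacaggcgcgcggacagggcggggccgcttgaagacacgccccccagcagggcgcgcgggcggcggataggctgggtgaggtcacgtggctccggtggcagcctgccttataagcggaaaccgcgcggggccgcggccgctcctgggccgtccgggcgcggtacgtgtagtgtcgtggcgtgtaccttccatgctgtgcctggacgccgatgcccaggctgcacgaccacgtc

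The box CCAAT occurred in all 5 windows. Hmgcs1 had 4 copies, Msmo1 and Hsd17b7 had 3 each, and Cyp51 and Insig1 had 1 each. The looser sterol element occurred once, in the Hmgcs1 window, starting at position -137 from the start site. A CCAAT box was found for 15 of the 16 synthesis enzymes held there (93.8%), all but Acat2, compared with 7 of the 13 other members (53.8%) and 41.1% of all genes in the table. The full sterol regulatory element was in 0 of the 29 members and in 0.0999% of all genes, and the looser form was in 1 of 29 (3.45%) and in 1.44% of all genes. The LXR repeat was in 0 of 29 members and in 0.0148% of all genes. Promoters were matched to these exact letters only. Sites with other letters were not counted, so a count of 0 does not show that a gene lacks such a site. Genes with several start sites had more than 1 window, and no test was made.

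Among the regulators of SREBP, only Insig1 was called. Insig1, which retains SCAP in the endoplasmic reticulum and is itself induced by SREBP (ENSMUSG00000045294, chromosome 5, 28071363 to 28078662), had 17.5, 17.1 and 19.7 FPKM in AdGFP and 13.2, 12.3 and 15 FPKM in AdCre. The ranges were apart, and the pair differences were nearly alike (-0.41, -0.48 and -0.39). The difference was -0.42 (SE 0.12, limma adjusted p 0.338, and 0.0367 with the block). The blocked call was lost after rescaling to TPM and without the library scaling of the authors, and it held in 2 of 9 blocked alternatives, the fewest of the 7 called members.

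Insig2, its paralogue, was not called and had 12.7, 15.5 and 14.4 FPKM in AdGFP and 12.7, 16.4 and 11.6 FPKM in AdCre. The difference was -0.08 with a 95% interval from -0.46 to 0.31, and it turned to 0.01 after rescaling to TPM. Whether Insig1 and Insig2 differed from each other was not tested.

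The transcripts of the SREBP factors themselves differed little. Srebf1, which mainly drives fatty acid synthesis and is also an LXR target, had 13.2, 15.3 and 14.7 FPKM in AdGFP and 14.6, 13.5 and 15.1 FPKM in AdCre. The ranges overlapped almost fully, and the 95% interval of the difference ran from -0.27 to 0.27. Gene-level values do not separate its start-site isoforms.

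Srebf2, which mainly drives cholesterol synthesis, had 16.7, 20.5 and 23.6 FPKM in AdGFP and 14.8, 17.8 and 18 FPKM in AdCre. All 3 pairs were lower (-0.17, -0.21 and -0.39) but the groups overlapped, and it was not called (difference -0.25, limma adjusted p 0.672, and 0.133 with the block). Without AdGFP replicate 1 the difference was -0.39, and without AdGFP replicate 3 it was -0.14. Scap, the escort protein, was at 5.39, 6.42 and 6.66 FPKM in AdGFP and 6.84, 6.10 and 7.88 FPKM in AdCre, a difference of 0.17 (95% interval -0.18 to 0.52). That of Scap was 0.07 without AdCre replicate 3, 0.08 without AdGFP replicate 1 and 0.26 without AdCre replicate 2.

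Of the 3 sterol transport members, Npc2 and Npc1 had a higher mean in AdCre and Stard4 a slightly lower one, and none was called in either fit. Npc2, the luminal protein that hands cholesterol out of lysosomes, had 28.4, 32.5 and 33.6 FPKM in AdGFP and 34.8, 36.4 and 43.8 FPKM in AdCre. No AdCre sample was as low as any AdGFP sample, the difference was 0.28, and it was not called (limma adjusted p 0.56, and 0.0988 with the block). Without AdCre replicate 3 the difference was 0.18. Its membrane partner Npc1 had 4.63, 6.39 and 7.24 FPKM in AdGFP and 5.80, 6.26 and 7.31 FPKM in AdCre, a difference of 0.10 that was -0.08 without AdGFP replicate 1. The cytosolic carrier Stard4 was at -0.04 (95% interval -0.43 to 0.34), a sign that turned after rescaling to TPM and without the library scaling of the authors.

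Abcg1, the half-transporter that exports cholesterol to lipoprotein particles, showed the largest difference of all members (ENSMUSG00000024030, chromosome 17, 31057675 to 31117988). It had 1.68, 2.10 and 1.85 FPKM in AdGFP and 4.33, 4.27 and 4.35 FPKM in AdCre. The AdCre samples were almost equal to each other and all lay above the highest AdGFP sample. The means were 1.88 ± 0.213 and 4.32 ± 0.0435 FPKM (n = 3 each), and the difference was 1.16 (95% interval 0.83 to 1.5), a 2.24-fold ratio on that scale. The unadjusted p was 7.47e-05 without pairing and the limma adjusted p was 0.102, against 0.0145 with the block. Without pairing the adjusted p ran from 0.0834 to 0.333 over the alternatives, and the difference from 0.89 with a pseudocount of 1 to 1.28 after rescaling to TPM. No single library set it, since leaving out any 1 sample gave between 1.09 and 1.25.

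None of the other 4 LXR and efflux members was called in either fit, and Mylip and Nr1h3 had a higher mean in AdCre while Abca1 and Nr1h2 had a lower one. Abca1, the exporter that loads lipid-poor apolipoprotein, had 6.56, 8.80 and 11.1 FPKM in AdGFP and 5.59, 9.69 and 8.79 FPKM in AdCre. The groups overlapped, with a difference of -0.14 (95% interval -0.77 to 0.49) that was 0.10 without AdCre replicate 1. Its spread within groups was larger than the difference between them.

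Mylip, the ligase that sends lipoprotein receptors for degradation, had 1.31, 2.04 and 2.51 FPKM in AdGFP and 2.39, 2.31 and 3.13 FPKM in AdCre. It was higher in all 3 pairs (0.81, 0.17 and 0.31) with overlapping ranges, and was not called (difference 0.43, limma adjusted p 0.656, and 0.184 with the block). The difference was 0.18 without AdGFP replicate 1. Of the receptors, Nr1h3 (LXR alpha) had 1.22, 1.08 and 1.52 FPKM in AdGFP and 2.07, 1.23 and 1.52 FPKM in AdCre, from as few as 69 reads. Its difference of 0.30 rested on AdCre replicate 1, and was 0.11 without it.

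Nr1h2 (LXR beta), at many times the level of Nr1h3 on the same per-length scale, had 19.3, 22.6 and 18.1 FPKM in AdGFP and 16.4, 19.1 and 16.9 FPKM in AdCre. Its difference was -0.19 (95% interval -0.50 to 0.12), and -0.10 without AdGFP replicate 2. Because the 5 members of this role spread from -0.19 to 1.16, their median of 0.30 is that of Nr1h3 and shares its dependence on single samples. Leaving out AdCre replicate 1 gave 0.11 and leaving out AdCre replicate 2 gave 0.46. Leaving out AdGFP replicate 1 or 2 gave 0.18 or 0.20.

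**Figure D3:**
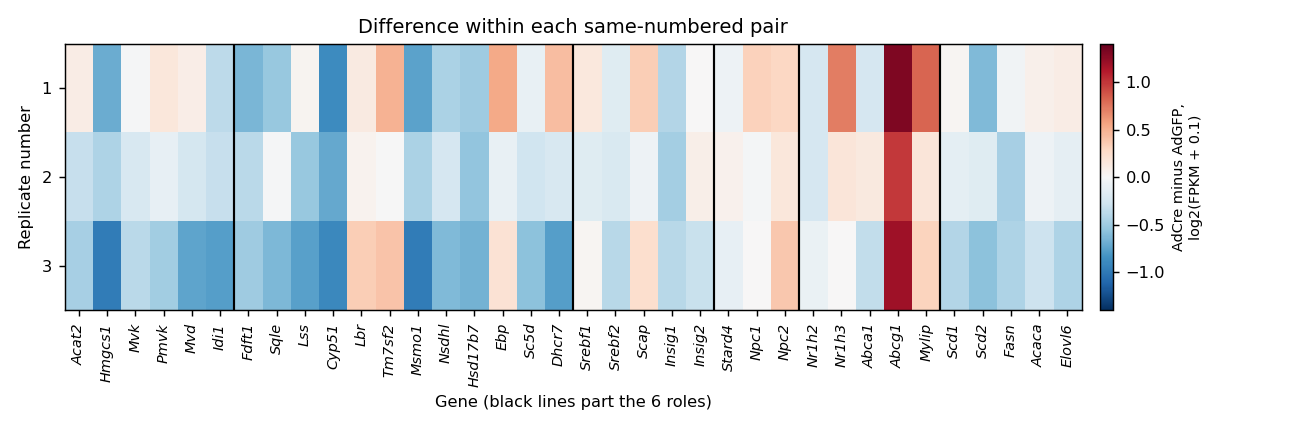
Difference within each same-numbered pair (rows, AdCre minus AdGFP on the log2(FPKM + 0.1) scale, blue lower and red higher) for the 36 tested members in order of role. Abcg1 is red in every row and Cyp51, Hmgcs1, Msmo1 and Hsd17b7 are blue in every row, while Dhcr7 runs from 0.43 in pair 1 to -0.77 in pair 3.

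The lipogenesis members all had a lower mean in AdCre, and none was called in either fit, though voom with the block called Scd2 and the blocked fit without pair 1 called Fasn. Scd2, a stearoyl-CoA desaturase and the most abundant member per length, had 107, 123 and 125 FPKM in AdGFP and 69.4, 110 and 83.9 FPKM in AdCre. AdCre replicate 2 lay within the AdGFP range, and all 3 pairs were lower (-0.62, -0.17 and -0.57), with a difference of -0.45 (limma adjusted p 0.486, and 0.0696 with the block). Scd1, its neighbour on chromosome 19, had 17.6, 24.2 and 24.3 FPKM in AdGFP and 17.9, 21.9 and 18.3 FPKM in AdCre, a difference of -0.17 (95% interval -0.57 to 0.22) that was -0.33 without AdGFP replicate 1 and -0.09 without AdGFP replicate 3. The difference between the paralogues was not tested, and they share 4.6% (Scd1) and 4.0% (Scd2) of their transcript words with other genes.

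Fasn, the fatty acid synthase, had 23.5, 30.1 and 30.1 FPKM in AdGFP and 22.8, 21.7 and 22.3 FPKM in AdCre. The AdCre samples were close together and all below the lowest AdGFP sample, which lay only just above them. The difference was -0.32 (limma adjusted p 0.488, and 0.141 with the block). Acaca, the acetyl-CoA carboxylase, had 2.37, 2.91 and 3.15 FPKM in AdGFP and 2.48, 2.76 and 2.56 FPKM in AdCre. Its difference was -0.10, with -0.21 without AdGFP replicate 1 and -0.01 without AdGFP replicate 3, and it shares 30.4% of its transcript words with other genes. The elongase Elovl6 had 2.45, 3.07 and 4.47 FPKM in AdGFP and 2.65, 2.79 and 3.31 FPKM in AdCre. Its difference of -0.15 was 0.08 without AdGFP replicate 3 and -0.34 without AdGFP replicate 1. The median of -0.17 over the 5 genes was -0.34 without AdGFP replicate 1, -0.09 without AdGFP replicate 3 and -0.08 after rescaling to TPM, which moved the median of all genes to 0.087.

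Synthesis was set against efflux in each sample as the mean log2(FPKM + 0.1) over the 18 synthesis members minus that over the 5 LXR and efflux members, a description without a test. This value was 0.87, 0.82 and 0.91 in AdGFP replicates 1 to 3 and 0.23, 0.30 and 0.18 in AdCre. The groups were far apart relative to their spread, 0.87 ± 0.04 against 0.24 ± 0.06 (SD, n = 3 each), a difference of -0.63. Mean synthesis was 2.62, 2.85 and 3.05 in AdGFP and 2.46, 2.57 and 2.54 in AdCre, and mean efflux was 1.75, 2.03 and 2.14 in AdGFP and 2.23, 2.27 and 2.36 in AdCre. The synthesis difference within pairs was -0.16, -0.28 and -0.52, and the efflux difference 0.48, 0.25 and 0.21.

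Abcg1 carried much of the efflux side. Without it, a step chosen after its value was seen, mean efflux differed by 0.10 between the groups, with pair differences of 0.27, 0.06 and -0.03. Synthesis minus efflux was then 0.64, 0.60 and 0.62 in AdGFP and 0.21, 0.26 and 0.13 in AdCre, a difference of -0.42. The groups stayed apart, and the distance then came mainly from the synthesis side.

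**Figure D4:**
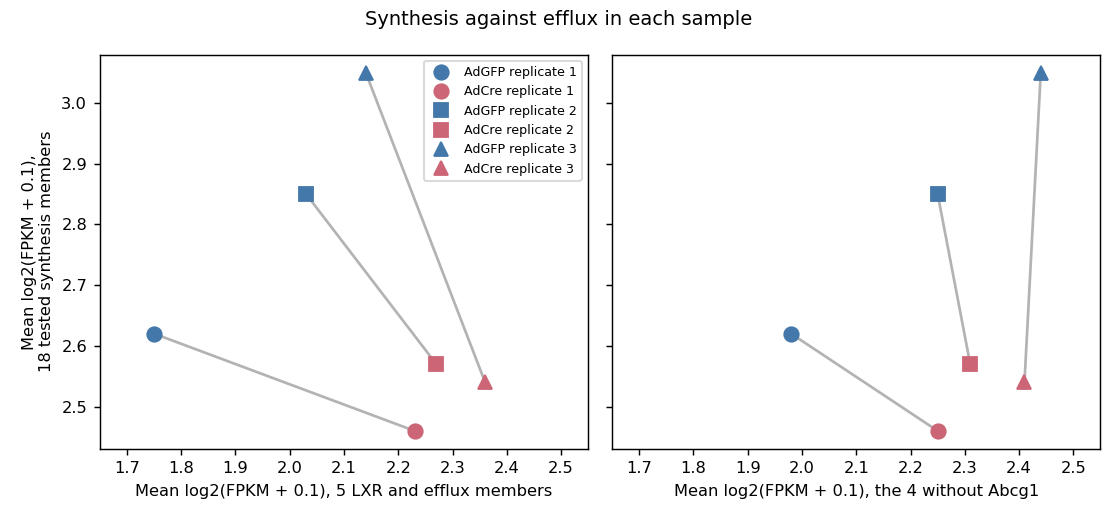
Mean log2(FPKM + 0.1) of the 18 tested synthesis members against that of the 5 LXR and efflux members (left) and of the 4 without Abcg1 (right), in each of the 6 samples. Blue is AdGFP, red AdCre, symbols mark the replicate number and grey lines join same-numbered samples. At the left every line runs down and to the right, and at the right the line of replicate 3 runs down and slightly to the left (-0.03 along the efflux axis).

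Other genes of the same pathways were counted from lists drawn up by function. Of 31 tested genes of fatty acid supply, SREBP processing and sterol handling, 16 were higher and 15 lower in AdCre, and 0 were called without pairing, with 3 at an unadjusted p under 0.05, against 10.2% of all genes. With the block 1 was called, against the 6.15% of all genes. It was Ch25h, which makes 25-hydroxycholesterol, an oxysterol known to hold back SREBP processing and to activate LXR, and which interferon is known to induce. Transcripts measure neither sterols nor SREBP processing, and any part of Ch25h or of interferon in the other differences was not tested. Ch25h had 9.74, 17.2 and 17.7 FPKM in AdGFP and 15.2, 24.1 and 30.1 FPKM in AdCre. The groups overlapped, all 3 pairs were higher (0.63, 0.49 and 0.77), and the difference was 0.63 (limma adjusted p 0.581, and 0.0247 with the block). It was 0.35 without AdGFP replicate 1 and 0.41 without AdCre replicate 3. The blocked call held in 5 of 9 blocked alternatives and was lost without a filter, without the trend, without replicate 2 and without replicate 3. Besides Ch25h, voom with the block called Acss2 and Acacb as lower and Soat1, Lipa and Plin2 as higher, beside 11.2% of all genes called in either direction. The 7 genes of SREBP processing and turnover, among them the proteases that cut it, ranged only from -0.11 to 0.25.

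Markers of cell types moved with the groups as well. In bulk samples, fewer cells of a type and less RNA per cell cannot be told apart. All 8 cardiomyocyte markers had a lower mean in AdCre, with a median of -0.77, and their summed level was between 4340 and 6970 FPKM in AdGFP and between 2810 and 4740 FPKM in AdCre, so the labelled cell type was present in every sample. With the block 6 of the 8 were called as lower (Tnnt2, Actn2, Ryr2, Pln, Nppa and Tnni3), against 3.51% of all genes. The 6 fibroblast markers all had a lower mean (median -0.40, sums of 1980 to 3600 against 1820 to 2510 FPKM), and Dcn and Lum were called as lower with the block. All 6 endothelial markers had a higher mean (median 0.38, sums of 34.6 to 63.3 against 47.1 to 84.6 FPKM), as were the 5 tested macrophage markers of 7 (median 0.53, sums of 10.4 to 36.2 against 21.6 to 41.9 FPKM). Smooth muscle and epicardial markers had medians of 0.07 over 5 genes and -0.52 over 4 genes, with sums of 111 to 117 against 109 to 128 FPKM and of 75.7 to 154 against 80.2 to 94.1 FPKM.

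Abcg1 is also expressed in macrophages and endothelium, whose summed markers had a higher mean in AdCre. The macrophage markers were uneven, with Fcgr1 at 1.04, Cd68 at 0.72, Csf1r at 0.53, Adgre1 at 0.12 and Cd14 at 0.04. None was called in either limma fit, while voom with the block called Fcgr1 (0.0209) and Cd68 (0.0446). Of the endothelial markers, Cdh5 (0.42) and Egfl7 (0.57) were called with the block that also called Abcg1 (limma adjusted p 0.0365 and 0.0458). Cx3cr1 and Ptprc were too low for testing, at means of 0.446 and 0.222 FPKM in AdGFP and 0.235 and 0.305 FPKM in AdCre. Macrophage sums in replicates 1 to 3 were 10.4, 28.8 and 36.2 FPKM in AdGFP, beside 1.68, 2.10 and 1.85 FPKM of Abcg1. In AdCre they were 21.6, 41.9 and 41.4 FPKM, beside 4.33, 4.27 and 4.35 FPKM of Abcg1. Endothelial sums were 34.6, 47.7 and 63.3 FPKM in AdGFP and 47.1, 61 and 84.6 FPKM in AdCre. The part of these cells in the Abcg1 difference was not tested. Of the 6 adipocyte markers, Adipoq, Plin1, Cidec and Lep were at most 0.269 FPKM in any sample, while Fabp4, which endothelium also expresses, was at 3.02 to 5.27 FPKM and Pparg at 1.47 to 3.96 FPKM, and the sum of the 6 was 7.14 to 7.63 FPKM in AdGFP and 4.84 to 6.43 FPKM in AdCre. The summed liver markers Alb, Apoa1, Ttr and Serpina1a were at most 0.318 FPKM. The part of these marker differences in the synthesis and lipogenesis transcripts was not tested.

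Depth allowed the members to be measured with unequal precision. Reads worked back from FPKM came to between 25.3 and 32.4 megareads per sample, and the tested members held between 69 (Nr1h3) and 17099 (Scd2) reads in a sample. Tm7sf2 (98 at the lowest) and Mylip (105) came next after Nr1h3. For Tm7sf2, Npc1, Abcg1, Scd1 and Scd2 the exon length used here gave no whole reads in some or all samples, so their reads are approximate while their FPKM are as deposited.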

How the data were processed

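RNA-seq was performed on poly-T selected RNA of 6 cultures, 3 for each group. The deposited values are FPKM made by the authors, 1 column per sample. The submitters' processing notes name fastp, STAR 2.5, HTSeq 0.6.1 and mm10. Neither annotation nor strand setting is given in the sources used here. Of 54532 Ensembl IDs, 54495 matched GENCODE M21 (GRCm38), which gave symbols, positions and exon lengths.

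Tests ran on log2(FPKM + 0.1) for the 13794 genes whose mean reached 0.5 FPKM, in limma 3.58.1 (R 4.3.3, lmFit and eBayes with a trend), with a term for group and Benjamini-Hochberg adjustment over all genes, called at 0.05. A difference is AdCre minus AdGFP on that scale and understates the change of low genes. Intervals are 95% intervals from the same fit. Biological replicates are the labels' term, and p-values measure the spread between these samples only.

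Deviations of same-numbered samples from their group means correlated at 0.568, 0.268 and 0.506 across genes, and other combinations at -0.497 to 0.0364, which was read as pairing, from the values alone. No library was a copy of another, as replicates differed beyond counting error (chi-square per degree of freedom 35.78 to 113.7).

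FPKM times exon length came out as whole reads, within 0.05 of a read, for 96.61% to 96.75% of genes above 0. The library sizes behind the FPKM, relative to the recovered reads, were 0.9491 to 0.994 in AdGFP and 1.0067 to 1.0455 in AdCre. Added after the data were seen were fits without this scaling and voom on the recovered reads. The other alternatives changed the pseudocount (1 or 0.01), the filter (none, or 1 FPKM), the scaling (TPM, median centring), the trend or the block, or left out samples. The fits were tested on simulated data.

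The members and all gene lists were chosen with earlier results of these data known. Values by sample are given for members called in either fit, for the 2 smallest p-values of each role and for all regulators, LXR, efflux and lipogenesis genes. Genes outside that rule were named after their values were seen. Promoters were to be shown for members with a sterol element, and those of the other called members were added after the calls were seen. Shared sequence was measured over 50-base words of GENCODE transcripts. Scripts ran in Python 3.11.15.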

Additional observations from a re-analysis of the deposited data

How the results depend on the processing

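The count of members called was 0 without pairing under every alternative and 7 with the replicate block. With the block it was also 7 with a pseudocount of 1 (5.68% of all genes called), 5 after rescaling to TPM (6.34%), 6 without the library scaling of the authors (6.34%), 10 with voom on the recovered reads (11.2%), and 0 without a filter or without a trend (0.0598% and 0%, with 16 and 12 members at an unadjusted p under 0.05). Leaving out samples or pairs gave between 0 and 6, and the cause was not tested. In the limma fit as reported, the block changed the call of no other member and, of the related genes, only that of Ch25h. Over all genes it called 848, and 1 without pairing.

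The synthesis median kept its sign under all alternatives, with -0.50 to -0.22 when samples or pairs were left out. The efflux median ran from 0.09 to 0.46 (0.11 without AdCre replicate 1) and was 0.19 with a pseudocount of 1, and the lipogenesis median ran from -0.34 to -0.06. Synthesis minus efflux was -0.51 with a pseudocount of 1, with or without the replicate block, and -0.68 to -0.58 when samples or pairs were left out. For 24 of the genes whose values are given by sample, which do not include Stard4, 600 values were computed under 25 alternatives. Of these, 539 kept direction and side of the threshold, 47 became calls and 14, of 5 genes, changed sign. None of the 24 genes was called without pairing, so no call could be lost. Keeping the side of the threshold therefore means only that a gene stayed uncalled. Insig2 was at 0.01 after rescaling to TPM, with or without the block, and from -0.22 to 0.04 over left-out samples (0.03 without AdCre replicate 3). On leaving out samples, Srebf1 ran from -0.07 to 0.09 (-0.01 with the block and without replicate 3), Npc1 from -0.08 to 0.24 (-0.01 with the block and without replicate 1), Abca1 from -0.34 to 0.10 and Elovl6 from -0.34 to 0.08. Counting error limits Fdps, Nr1h3 and Tm7sf2 most.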

Other observations

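Beyond the genes named by rule, 3 genes of the related lists had ranges that did not overlap between the groups and were singled out after their values were seen. That is 3 of 31 tested, while 15.4% of all genes had such ranges in either direction. Acss2, which makes acetyl-CoA from acetate in the cytosol, had 3.48, 3.75 and 2.86 FPKM in AdGFP and 1.81, 2.79 and 1.84 FPKM in AdCre. The difference was -0.65 (limma adjusted p 0.374, and 0.0552 with the block), close to that of Hmgcs1 at -0.70. Plin2, the coat protein of lipid droplets, had 32.7, 29.8 and 28.4 FPKM in AdGFP and 40.2, 36.4 and 45.9 FPKM in AdCre. It was higher by 0.43 (0.344, and 0.0729 with the block), in all 3 pairs. Rnf139, a ubiquitin ligase of sterol regulation, lay lower by a small step (-0.11, limma adjusted p 0.798). None of the 3 was called in the limma fits, while voom on the recovered reads with the block called Acss2 (adjusted p 0.0131) and Plin2 (0.0295).

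Within AdGFP, the synthesis mean was lowest in replicate 1 (2.62) and highest in replicate 3 (3.05), while the AdCre samples lay between 2.46 and 2.57. The summed cardiomyocyte markers were 6970, 5800 and 4340 FPKM in AdGFP replicates 1 to 3 and 4740, 3810 and 2810 FPKM in AdCre, and the summed fibroblast markers were 1980, 2740 and 3600 FPKM in AdGFP and 1820, 2330 and 2510 FPKM in AdCre. Within AdGFP the cardiomyocyte sum was lowest where the synthesis mean was highest, and the fibroblast, endothelial (34.6, 47.7 and 63.3 FPKM) and macrophage (10.4, 28.8 and 36.2 FPKM) sums were highest there. This order was not kept in AdCre, where the synthesis mean was 2.46, 2.57 and 2.54 in replicates 1 to 3. There the cardiomyocyte sum was lowest, and the fibroblast and endothelial sums highest, in replicate 3. The macrophage sum was highest in replicate 2, as was the synthesis mean. Between the groups the cardiomyocyte and fibroblast sums had lower means in AdCre and the endothelial and macrophage sums higher ones. With 3 samples a group this was not tested.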
